A study of Homo sapiens with 12 samples.

Results

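The genes described here carry a microRNA from its primary transcript to the silencing complex, together with LIN28B, which interrupts that path for the let-7 family. They are 10 of the 19923 genes counted, chosen by name for their role: DROSHA, DGCR8, XPO5, DICER1, TARBP2, AGO1, AGO2, AGO3, LIN28B and DIS3L2. Their messenger RNA was sequenced from the SK-N-BE2 line and the NGP line, both long-established cultures of human neuroblastoma with amplified MYCN and a genotype given as wild type. Both lines were treated for 6 days with STM2457, a small molecule that inhibits the RNA methyltransferase METTL3, or with DMSO, its solvent. SK-N-BE2 received 12 µM and NGP received 1 µM. Each of the 4 groups (SK-N-BE2 DMSO, SK-N-BE2 STM2457, NGP DMSO, NGP STM2457) had 3 replicates, giving 12 libraries of polyadenylated RNA. Nothing in the labels says that replicates came from separate cultures, so p-values measure only the spread between these libraries, which may be technical.

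MicroRNAs are cut out of long primary transcripts in the nucleus by the Microprocessor, in which DROSHA is the nuclease and DGCR8 recognises the hairpin. Exportin-5 (XPO5) carries the hairpin to the cytoplasm, where DICER1, with its partner TARBP2, trims it to a duplex that is loaded into an Argonaute protein. LIN28B, an oncogene in neuroblastoma, binds let-7 precursors and blocks their maturation. Let-7 hairpins that carry an added uridine tail, as its paralog LIN28A is known to direct, are degraded by the exonuclease DIS3L2. The let-7 microRNAs in turn repress LIN28B messenger RNA. METTL3 has been described as marking primary microRNAs for recognition by DGCR8. Mature microRNAs are not polyadenylated, so the values below are transcript levels of the machinery, not microRNA levels.

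The mature let-7 sequences show what LIN28B controls, and they are given here because the sites in LIN28B itself are read against them. All 9 mature 5′-arm (5p) sequences of the let-7 and miR-98 family in RefSeq (GRCh38.p14) shared 1 seed, bases 2 to 8, printed in capitals. Members that differ outside the seed include these:
hsa-let-7a-5p: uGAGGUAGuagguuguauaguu
hsa-let-7g-5p: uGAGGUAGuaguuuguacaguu
hsa-let-7i-5p: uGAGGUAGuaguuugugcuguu
hsa-miR-98-5p: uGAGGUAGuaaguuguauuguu

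LIN28 proteins are known to contact a GGAG motif between the arms of the hairpin. The letters GGAG stood between the arms in 9 of the 12 hairpins of the family, and MIR98, MIRLET7A3 and MIRLET7B had none there. The pair below shows one hairpin with the motif, in capitals, and one without. MIRLET7G lies at chr3:52268278-52268361 on the minus strand and MIRLET7A3 at chr22:46112749-46112822 on the plus strand.
MIRLET7G: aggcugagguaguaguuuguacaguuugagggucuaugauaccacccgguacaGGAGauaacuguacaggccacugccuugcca
MIRLET7A3: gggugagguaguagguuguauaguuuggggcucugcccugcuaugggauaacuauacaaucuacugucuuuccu

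The 3′ untranslated region (UTR) of LIN28B held 4 copies of CTACCTC, the complement of the let-7 seed, in 4549 bases. The motif was searched on the transcript strand only, in the canonical transcript of each gene in GENCODE 44. Of 19527 protein-coding 3′ UTRs, 9.75% held at least 1 copy and 12, or 0.0615%, held at least 4. Among UTRs of 80% to 125% of the LIN28B length, 23.5% held at least 1. The 4 LIN28B sites follow (GRCh38, plus strand), with the match in capitals:
site 1: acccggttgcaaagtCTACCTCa
site 2: tactgatgatagtaaCTACCTCt
site 3: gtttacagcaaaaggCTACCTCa
site 4: aaatgatggtgttgaCTACCTCt

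Of the other genes, AGO2 held 2 matches in a UTR of 11888 bases, and AGO1, AGO3 and TARBP2 held 1 each. At least 1 match was present in 49.1%, 50.3% and 54.3% of UTRs of like length for AGO1, AGO2 and AGO3, and in 2.24% for TARBP2. DROSHA, DGCR8, XPO5, DICER1 and DIS3L2 held 0. A match describes letters and is not evidence of binding.

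The libraries held 47242379 to 58159937 reads each, and the 10 genes had between 1260 and 17834 reads in any library. All 10 passed the filter on low counts in each fit. Levels are CPM, reads scaled to 1000000 per library, on a TMM scale shared by all libraries; levels of different genes are compared as CPM per kilobase of exon. In each group 9 of 10 neuroblastoma markers exceeded 1 CPM. TH, an enzyme of catecholamine synthesis, was at most 1.13 CPM in NGP. The summed level of 15 markers of other cell types was 120 to 133 CPM in SK-N-BE2 with DMSO and 195 to 210 CPM with STM2457. In NGP it was 37.8 to 48.7 CPM and 163 to 189 CPM. PDGFRB, DCN and LUM made up most of it, while the immune markers PTPRC and CD3E were at 0 in all NGP libraries and at most 1.29 CPM in SK-N-BE2. Their part in the results was not tested. METTL3 transcript itself was higher with STM2457, by 0.52 on the log2 scale in SK-N-BE2 (SE 0.08, adjusted p = 0.000106) and by 0.92 in NGP (SE 0.11, adjusted p = 3e-04, both by edgeR's quasi-likelihood test).

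One library stood apart, and it bears on every NGP value below. For the 10 genes, NGP DMSO replicate 1 differed from the mean of the other NGP DMSO libraries by 0.50 on the log2 scale on average (absolute value), against 0.05 to 0.38 for every other library within its group. The difference ran from -1.14 for DICER1, -0.70 for AGO2, -0.66 for AGO3 and -0.60 for LIN28B to 0.23 for DGCR8 and 0.69 for TARBP2. It moved with exon length over all genes: with the genes split into 4 classes of equal size, the median was 0.36 for the shortest exons, then 0.10 and -0.05, and -0.29 for the longest. TARBP2 has the shortest exon length of the 10, 4090 bases. For the fitted values of the 10 genes, the value without NGP DMSO replicate 1 is given beside the printed one where needed. That was done where leaving it out changed a call, turned a direction or moved a value by more than 1.5 times. Genes outside the 10 were summarised without this library only as counts per list, so their single values, AGO4 included, were not checked this way.

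**Figure D1:**
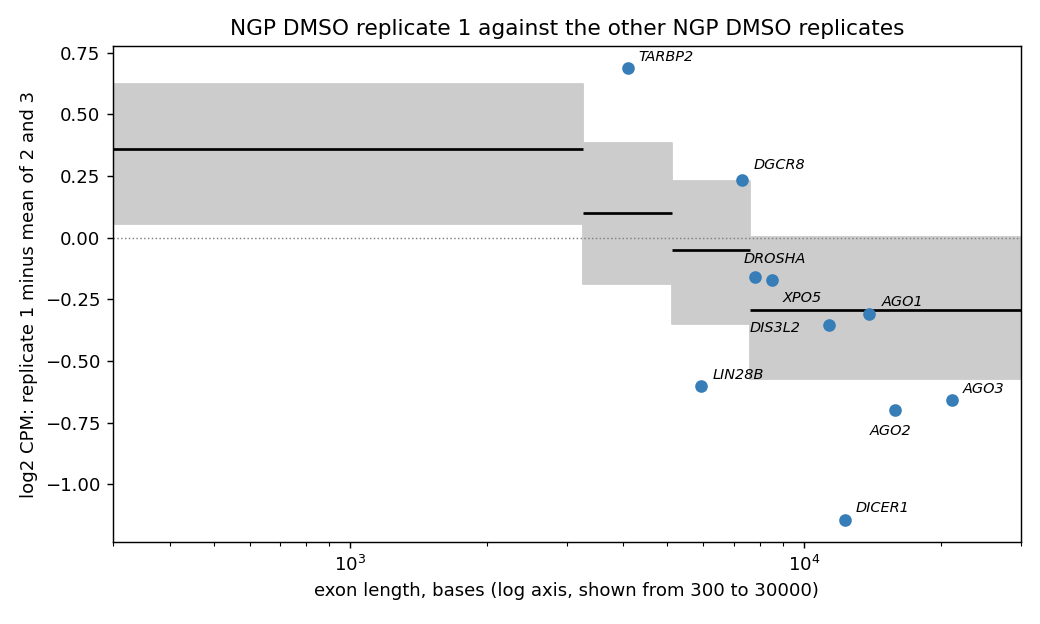
Log2 CPM of NGP DMSO replicate 1 minus the mean of replicates 2 and 3 (vertical axis) against exon length in bases (log axis) for the 10 genes (points); black lines are medians over all tested genes in 4 equal classes of exon length and grey bands run from the 25th to the 75th percentile. DICER1 lies lowest at -1.14 and TARBP2 highest at 0.69, while the medians fall from 0.36 to -0.29.

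The first question was whether STM2457 changed the transcripts of the pathway in SK-N-BE2. At 12 µM, DROSHA and XPO5 rose, AGO3 fell, and the other 7 genes did not pass the test. These 3 of 10 called genes stand against 54.7% of the 14013 genes tested, so the share among the pathway genes was below the background. By direction, 2 were higher (background 26.9%) and 1 was lower (27.8%). The median log2 fold change of the 10 was 0.10, beside -0.02 over all genes tested. The 3 libraries of each treatment did not overlap for 5 of the 10 genes, against 62.2% of all genes.

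Positions below are those of the deposited files on GRCh38. DROSHA (chr5:31400497-31532196, minus strand), the nuclease of the Microprocessor, had 66.1, 59.6 and 55.1 CPM with DMSO and 101, 110 and 108 CPM with STM2457. Every treated library lay above every control library. The log2 fold change was 0.79 (SE 0.09; by edgeR, adjusted p = 7.07e-06), or 1.73-fold, and it ranged from 0.72 to 0.86 over the other settings and left-out libraries, under each of which it passed the test. Its partner DGCR8 (chr22:20080232-20111877, plus strand) had 65.7, 65.0 and 76.9 CPM with DMSO and 80, 74.6 and 84.4 CPM with STM2457. The groups overlapped, and the log2 fold change of 0.17 (SE 0.09) did not pass (edgeR, adjusted p = 0.137); without SK-N-BE2 DMSO replicate 3 it was 0.25 and passed (adjusted p = 0.0384). The ratio of DROSHA to DGCR8 in CPM per kb was 0.827 ± 0.139 (SD, n = 3) with DMSO and 1.26 ± 0.11 with STM2457, with ranges of 0.673 to 0.945 and 1.19 to 1.39 that did not overlap.

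XPO5 (chr6:43522334-43576038, minus strand), the export receptor, had 147, 129 and 128 CPM with DMSO and 181, 178 and 173 CPM with STM2457. All treated libraries were higher, with a log2 fold change of 0.36 (SE 0.08; by edgeR, adjusted p = 0.00222). DICER1 (chr14:95086228-95158010, minus strand), which cuts the exported hairpin, had 104, 86.8 and 88.4 CPM with DMSO and 97.3, 118 and 101 CPM with STM2457, and the groups overlapped. Its log2 fold change was 0.14 (SE 0.10; by edgeR, adjusted p = 0.24). TARBP2 (chr12:53500921-53506431, plus strand), the double-stranded RNA binding partner of DICER1, had 38.9 to 46.2 CPM and 46.4 to 49.5 CPM. These groups did not overlap, but the log2 fold change of 0.10 (SE 0.09) did not pass (edgeR, adjusted p = 0.39). For TARBP2, 13.2% of the exon length is shared with a long noncoding RNA on the other strand, and counting did not use strand, so its value is uncertain.

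Among the Argonautes, the proteins that hold the mature microRNA, AGO3 (chr1:35930718-36072500, plus strand) had 54.8, 45.9 and 48.3 CPM with DMSO and 36.9, 41.8 and 38.1 CPM with STM2457. Every treated library was lower, and the log2 fold change was -0.39 (SE 0.09; by edgeR, adjusted p = 0.00319). In a joint fit of all 12 libraries AGO3 no longer passed (adjusted p = 0.0861). AGO2 (chr8:140520156-140635633, minus strand), the Argonaute that can slice its target, had 109 to 150 CPM with DMSO and 111 to 136 CPM with STM2457. Its log2 fold change was -0.12 (SE 0.11; by edgeR, adjusted p = 0.401), but -0.25 with an adjusted p of 0.0137 when the trend of each library with exon length was removed. AGO1 (chr1:35869808-35930532, plus strand) had 52.5 to 65.2 CPM and 58.7 to 62.5 CPM, for a log2 ratio of 0.03 (SE 0.09; by edgeR, adjusted p = 0.817), which was -0.02 with upper-quartile scaling and -0.11 with the exon length trend removed.

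LIN28B (chr6:104936616-105083332, plus strand) had 48.1, 46.5 and 45.8 CPM with DMSO and 45.3, 52.5 and 45.7 CPM with STM2457. The groups overlapped throughout, and the log2 fold change was -0.01 (SE 0.09; by edgeR, adjusted p = 0.964), between -0.08 and 0.04 over the alternatives. DIS3L2 (chr2:231961245-232344350, plus strand), the exonuclease that degrades uridylated let-7 hairpins, had 41.9, 42.8 and 43.6 CPM and then 47.5, 47.8 and 46.0 CPM. All treated libraries were higher, yet the log2 fold change of 0.10 (SE 0.08) did not pass (edgeR, adjusted p = 0.295) and was -0.01 with the exon length trend removed.

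**Figure D2:**
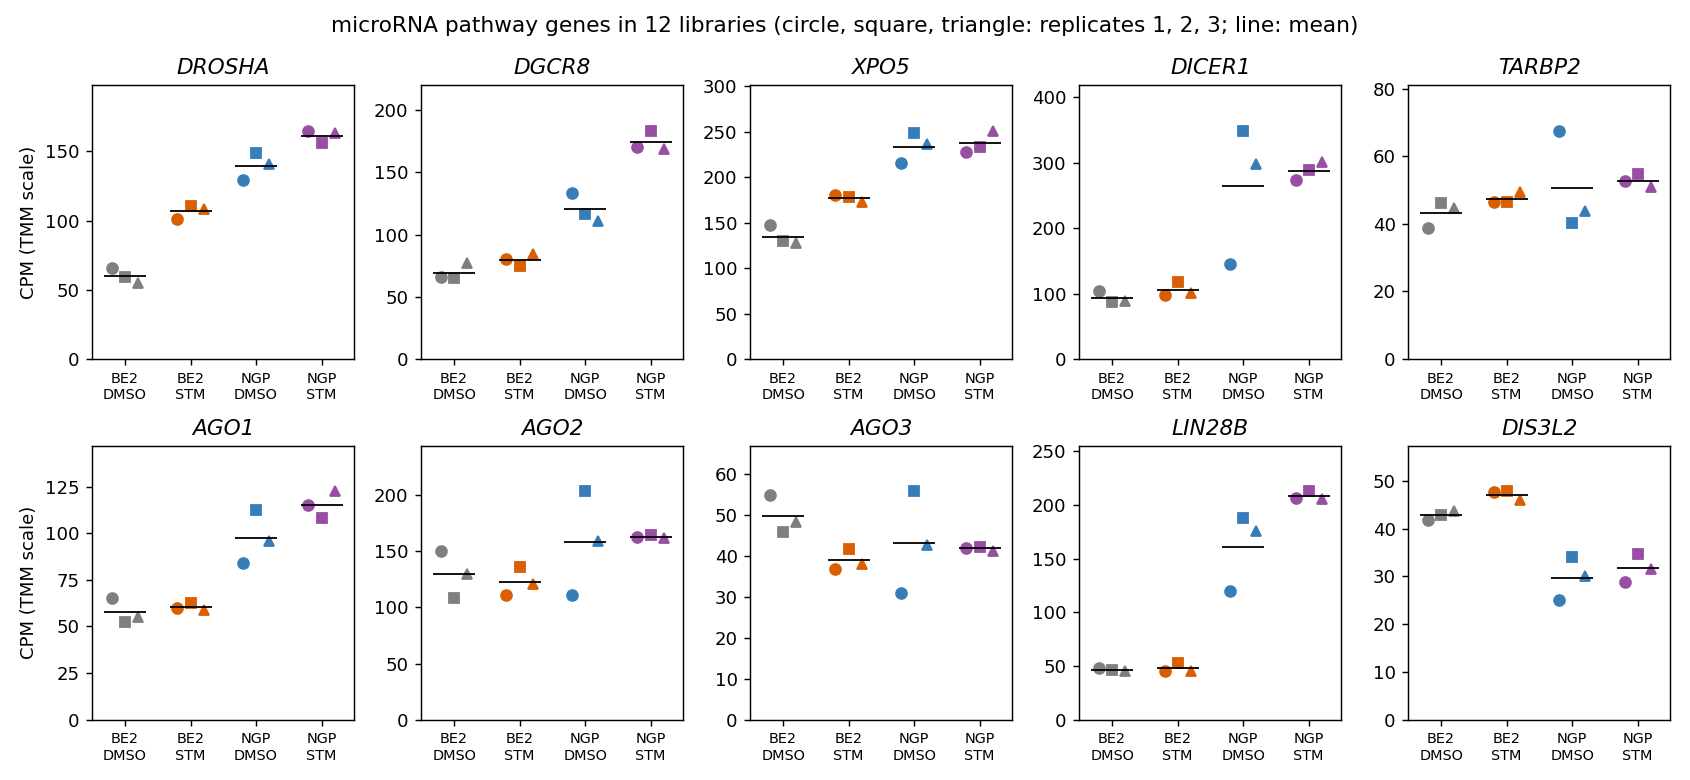
CPM on the TMM scale (vertical axes, from 0) of the 10 genes in the 4 groups; each symbol is a library (circle, square and triangle for replicates 1, 2 and 3) and the line is the group mean. In SK-N-BE2 the treated DROSHA libraries sit at 101 to 110 CPM, all above 55.1 to 66.1 CPM in the controls, while NGP DMSO replicate 1 lies apart for DICER1, TARBP2 and LIN28B.

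In NGP, treated with 1 µM, DGCR8 rose and no other gene passed, so 1 of 10 was called, against 41.7% of the 13610 genes tested (19.4% higher, 22.2% lower). The median log2 fold change of the 10 was 0.08, beside -0.03 over all genes tested. For 3 of the 10 genes the groups did not overlap, against 54.7% of all genes. Without NGP DMSO replicate 1 the count was 3 (DGCR8, TARBP2 and LIN28B), and without NGP DMSO replicate 2 it was 2 (DGCR8 and LIN28B).

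DGCR8 had 134, 116 and 111 CPM with DMSO and 170, 184 and 169 CPM with STM2457. All treated libraries were higher, with a log2 fold change of 0.51 (SE 0.10; by edgeR, adjusted p = 0.00459), or 1.42-fold; it was 0.45 to 0.59 over the alternatives and passed in each. DROSHA had 130, 149 and 141 CPM with DMSO and 165, 156 and 163 CPM with STM2457. The groups did not overlap, but the log2 fold change of 0.18 (SE 0.09) did not pass (edgeR, adjusted p = 0.15). The ratio of DROSHA to DGCR8 in CPM per kb was 1.10 ± 0.17 (SD, n = 3) with DMSO and 0.873 ± 0.062 with STM2457; the lowest control, 0.912, stood just above the highest treated library, 0.911. With 3 libraries against 3, an exact permutation test of such a ratio cannot go below a two-sided p of 0.1.

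LIN28B had 120, 188 and 176 CPM with DMSO and 207, 213 and 205 CPM with STM2457. All 3 treated libraries were above all controls, and the log2 fold change was 0.34 (SE 0.16; by edgeR, adjusted p = 0.119). The value depended on the low control library. Without NGP DMSO replicate 1 the log2 fold change was 0.17 and passed (adjusted p = 0.0438), without NGP DMSO replicate 2 it was 0.47 (adjusted p = 0.046), and in the joint fit of all 12 libraries it was 0.37 (adjusted p = 0.0337). DIS3L2 had 25 to 34.0 CPM with DMSO and 28.9 to 34.6 CPM with STM2457, with a log2 fold change of 0.07 (SE 0.14; by edgeR, adjusted p = 0.724), which was -0.04 without NGP DMSO replicate 1 and 0.18 without NGP DMSO replicate 2.

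DICER1 had 146, 349 and 298 CPM with DMSO and 273, 288 and 301 CPM with STM2457. The treated libraries lay inside the control range, and the log2 fold change was 0.10 (SE 0.27; by edgeR, adjusted p = 0.798); without NGP DMSO replicate 1 it was -0.20 and did not pass. TARBP2 had 67.6, 40.2 and 43.9 CPM with DMSO and 52.8, 54.7 and 51.0 CPM with STM2457. Its log2 fold change was 0.04 (SE 0.19; by edgeR, adjusted p = 0.884), and without NGP DMSO replicate 1 it was 0.30 and passed (adjusted p = 0.00744). XPO5 had 215 to 248 CPM and 228 to 251 CPM, which gave a log2 ratio of 0.00 (SE 0.10; by edgeR, adjusted p = 0.995), and -0.06 without NGP DMSO replicate 1. None of the Argonautes passed: AGO1 had a log2 fold change of 0.22, AGO2 0.02 and AGO3 -0.07, with standard errors of 0.13 to 0.19. Without NGP DMSO replicate 1 they were 0.12, -0.18 and -0.26, and without NGP DMSO replicate 2 they were 0.34, 0.25 and 0.16, none of which passed.

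**Figure D3:**
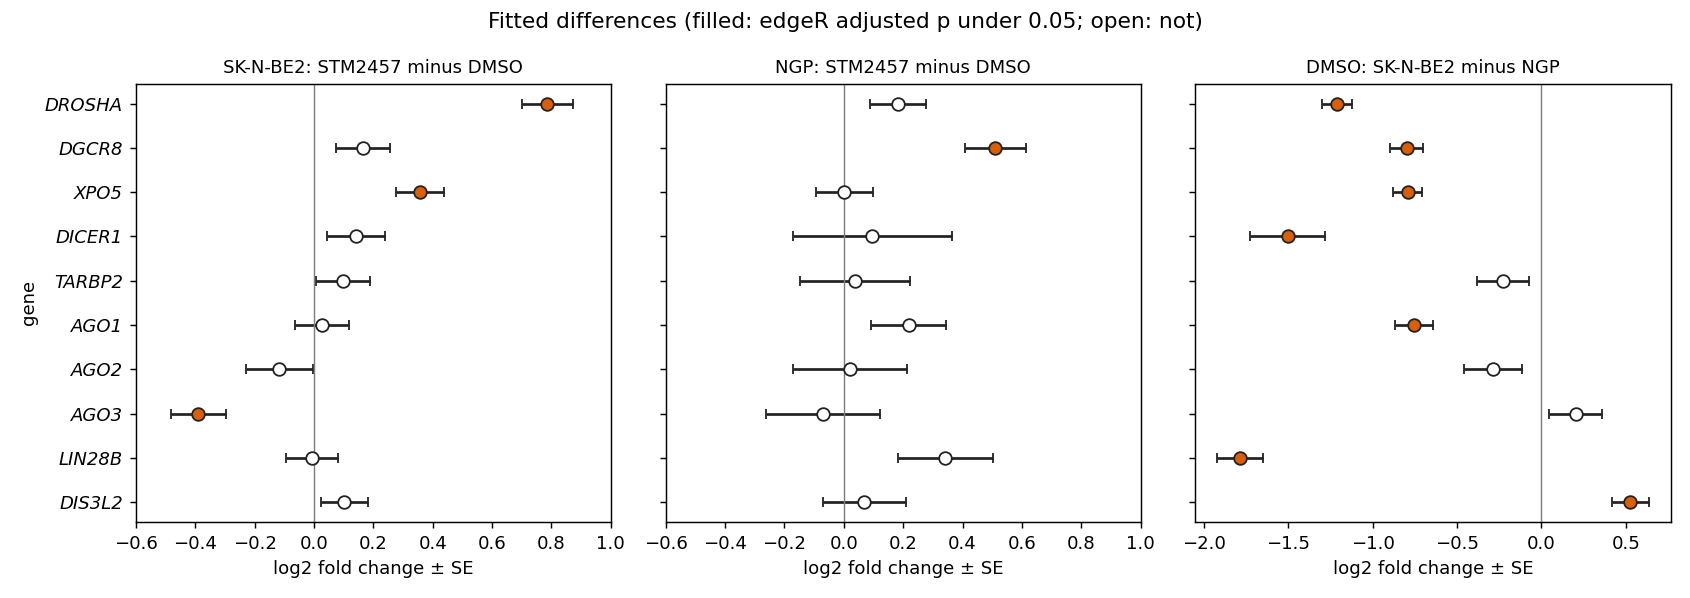
Log2 fold changes with standard errors (horizontal axes) for the 10 genes, with STM2457 against DMSO in SK-N-BE2 (left) and in NGP (middle), and between the DMSO groups as SK-N-BE2 minus NGP (right, wider axis); filled points have an edgeR adjusted p under 0.05. DROSHA, XPO5 and AGO3 are filled on the left, DGCR8 alone in the middle, and LIN28B is the lowest point on the right at -1.79.

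Whether the lines responded differently was tested as the difference of the 2 responses, SK-N-BE2 minus NGP. DROSHA and XPO5 passed, 2 of 10 genes, against 30.9% of the 14731 genes tested (17% higher in SK-N-BE2, 13.9% lower), and both had the larger response in SK-N-BE2. The difference was 0.62 for DROSHA (SE 0.12; by edgeR, adjusted p = 0.00198). For XPO5 it was 0.37 (SE 0.12; by edgeR, adjusted p = 0.0326), and this call was lost in 11 of 21 alternatives, with adjusted p up to 0.104. It was lost on leaving out any of SK-N-BE2 DMSO replicates 2 and 3, SK-N-BE2 STM2457 replicates 1 to 3, NGP DMSO replicates 2 and 3, and NGP STM2457 replicates 1 and 2.

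DGCR8, called in NGP alone, differed by -0.33 (SE 0.14) and did not pass (edgeR, adjusted p = 0.0815). It passed without NGP DMSO replicate 1, at -0.43 (adjusted p = 0.00795), with upper-quartile scaling (adjusted p = 0.0423) and by DESeq2 (adjusted p = 0.0466). LIN28B differed by -0.34 (SE 0.19; by edgeR, adjusted p = 0.192), and by -0.18 without NGP DMSO replicate 1. AGO3 differed by -0.31 (SE 0.22; by edgeR, adjusted p = 0.326), was -0.13 without NGP DMSO replicate 1, and passed without NGP DMSO replicate 2 at -0.54 (adjusted p = 0.0327) and with the exon length trend removed at -0.41 (adjusted p = 0.0216). Line, dose and sequencing run changed together, so they cannot be told apart in any of these differences.

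The lines were also compared with each other in DMSO. Each line was sequenced in a run of its own, so line and sequencing run cannot be told apart in this comparison. Between the DMSO groups, 7 of the 10 genes differed, against 71.1% of the 14731 genes tested, so the count was at the background. Of these, 6 were lower in SK-N-BE2 (background 35.4%) and only DIS3L2 was higher (35.7%). The median difference of the 10 was -0.77, beside 0.00 over all genes tested, and 7 of 10 did not overlap, against 68.9% of all genes. A log2 difference of at least 1 was reached by LIN28B, DICER1 and DROSHA, 3 of 10, against 37.8%. In bulk RNA, fewer cells expressing a gene and less RNA per cell cannot be told apart.

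LIN28B averaged 46.8 ± 1.2 CPM (SD, n = 3) in SK-N-BE2 and 161 ± 36 CPM in NGP, a log2 difference of -1.79 (SE 0.14; by edgeR, adjusted p = 2.68e-08). The lowest NGP control, 120 CPM, was above every SK-N-BE2 library. DICER1 averaged 93.1 ± 9.6 CPM and 264 ± 106 CPM, a difference of -1.504 (SE 0.22; by edgeR, adjusted p = 3.13e-05), between -1.77 and -1.24 over the alternatives. DROSHA averaged 60.2 ± 5.5 CPM and 140 ± 10 CPM, a difference of -1.21 (SE 0.09; by edgeR, adjusted p = 1.77e-08). DGCR8, XPO5 and AGO1 differed by -0.80, -0.79 and -0.75. DIS3L2 was the exception, at 42.7 ± 0.9 CPM in SK-N-BE2 and 29.7 ± 4.5 CPM in NGP, a difference of 0.53 (SE 0.11; by edgeR, adjusted p = 0.000666).

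TARBP2, AGO2 and AGO3 did not pass, with differences of -0.23, -0.29 and 0.20. Without NGP DMSO replicate 1 the AGO2 difference was -0.46 and passed (adjusted p = 0.00318), and the TARBP2 difference was 0.06; without NGP DMSO replicate 2 TARBP2 passed at -0.36 (adjusted p = 0.039). The AGO3 difference was 0.03 without NGP DMSO replicate 1, and it passed without NGP DMSO replicate 2, at 0.44 (adjusted p = 0.00901). Removing the exon length trend gave 0.37 for AGO3 (adjusted p = 0.00175).

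The levels were also ordered within each group, per length. Length is the sum of all annotated exon bases of a gene, not that of the transcript expressed, so the order depends on it. AGO3 has 21153 such bases and TARBP2 4090. Before division by length, AGO3 averaged 49.6 CPM and TARBP2 43.2 CPM in SK-N-BE2 with DMSO. The same lengths enter the ratios and the Argonaute shares. In SK-N-BE2 with DMSO, XPO5 led at 15.9 ± 1.3 CPM per kb (SD, n = 3), followed by TARBP2 at 10.6, DGCR8 at 9.46, AGO2 at 8.17, LIN28B at 7.87, DROSHA at 7.74 and DICER1 at 7.57. From TARBP2 to DICER1 each gene overlapped the next. AGO1 at 4.15 and DIS3L2 at 3.77 also overlapped, and AGO3 was lowest at 2.35. With STM2457 DROSHA stood at 13.7 ± 0.6 CPM per kb, second to XPO5 at 20.9 and above TARBP2 at 11.6 without overlap.

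In NGP with DMSO, XPO5 at 27.5, LIN28B at 27.1 and DICER1 at 21.5 CPM per kb led and overlapped. The order went on through DROSHA at 18.0, DGCR8 at 16.4, TARBP2 at 12.4, AGO2 at 9.96 and AGO1 at 7.0, each overlapping the next, to DIS3L2 at 2.62 and AGO3 at 2.04. With STM2457, LIN28B was highest at 35.0 ± 0.6 CPM per kb, above XPO5 at 28.0 without overlap. Among the genes with at least 1 CPM, LIN28B stood at percentile 58.0 in SK-N-BE2 with DMSO and 87.0 in NGP with DMSO. Its paralog LIN28A, which also blocks let-7 maturation, was at most 0.118 CPM in any library.

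AGO2 was the most abundant Argonaute transcript per length in both lines, at 49.7 ± 1.7% (SD, n = 3) of the summed AGO1 to AGO4 level in SK-N-BE2 with DMSO and 42.4 ± 2.7% in NGP with DMSO. In SK-N-BE2 the AGO3 share was 14.4 ± 0.6% with DMSO and 11.3 ± 0.1% with STM2457, and the AGO4 share was 10.6 ± 0.4% and 14.6 ± 0.8%. Neither pair of groups overlapped. In NGP the AGO4 share went the other way, 18.3 ± 0.2% with DMSO and 14.7 ± 0.4% with STM2457, also without overlap. The AGO4 transcript itself rose in SK-N-BE2 by 0.42 (SE 0.12; by edgeR, adjusted p = 0.00736) while in NGP its value of -0.29 did not pass (adjusted p = 0.203). The difference between the lines for AGO4 was 0.72 (SE 0.21; by edgeR, adjusted p = 0.0198); AGO4 was singled out after its values were seen.

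**Figure D4:**
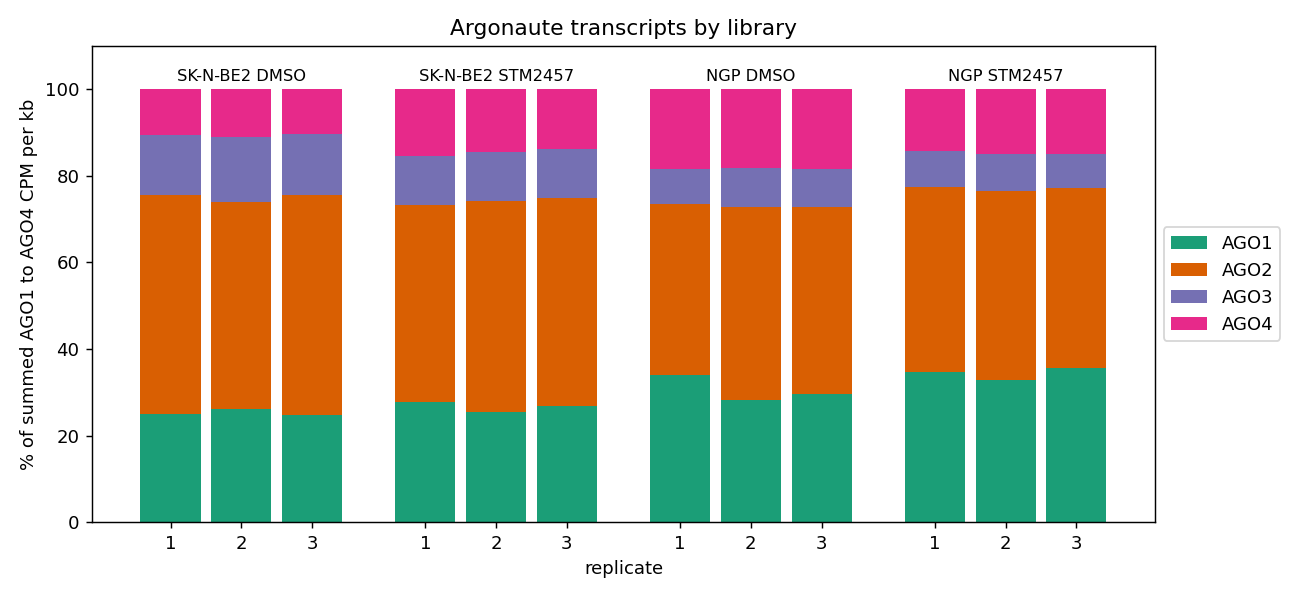
Share of each Argonaute in the summed CPM per kb of AGO1 to AGO4 (vertical axis, percent) in each of the 12 libraries, grouped by line and treatment. AGO2 is the largest segment in every library, and the AGO4 segment is larger with STM2457 in SK-N-BE2 (10.6% to 14.6%) and smaller in NGP (18.3% to 14.7%).

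The 5 genes whose profile over the 12 libraries was most like that of LIN28B were FCHO2, MCC, BEND4, SLC16A10 and NBPF3. Likeness was the root mean square difference of centred log2 CPM, over the 9797 genes that averaged 10 CPM or more; it was 0.15 for FCHO2 and 0.19 for NBPF3, against a median of 1.03. MCC, for example, averaged 43.6 CPM in SK-N-BE2 with DMSO, 59.0 with STM2457, and 179 and 216 CPM in NGP. All 5 averaged higher in both NGP groups than in both SK-N-BE2 groups, as LIN28B did; the profiles share libraries and their scaling, so the likeness is a description. Among the pathway genes, DICER1 was nearest to LIN28B at 0.30 and DIS3L2 farthest at 1.26. The likeness was not computed without NGP DMSO replicate 1, in which both LIN28B and DICER1 were low.

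DGCR8 carries microRNAs in its own exons, which the Microprocessor is known to cut as a form of self-control. In RefSeq, hsa-miR-3618 lies in the 5′ UTR exon at chr22:20085797-20085818, and hsa-miR-1306-5p in the coding exon at chr22:20086072-20086093, both on the plus strand. Whether this self-control had a part in the DGCR8 values was not tested. The 2 microRNAs are printed with bases 2 to 8 in capitals because DGCR8 was the gene that rose in NGP:
hsa-miR-3618: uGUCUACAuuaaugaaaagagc
hsa-miR-1306-5p: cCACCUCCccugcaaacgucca

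Other factors of nuclear processing were described by counts. Over all genes tested, 26.9% rose and 27.8% fell in SK-N-BE2, and 19.4% rose and 22.2% fell in NGP. Of 11 tested in SK-N-BE2, 4 rose and 1 fell, with a median log2 fold change of 0.03. HNRNPA2B1, a reader of methylated primary microRNAs, rose by 0.59 and ADAR, the RNA editing enzyme, by 0.55, and ERH, a DGCR8 cofactor, fell by 0.61. In NGP 4 rose and 1 fell of 11, median 0.25; RAN, the GTPase that drives export, rose by 0.59, SRRT, a cap-complex adaptor, rose by 0.58, and ERH fell by 0.76. The NGP count was 3 without NGP DMSO replicate 3 and without NGP STM2457 replicates 1 or 3, each left out alone.

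Of 9 genes of Dicer action and Argonaute loading, 6 rose and 1 fell in SK-N-BE2 (median 0.30), against 26.9% and 27.8% of all genes. In NGP 4 rose and 0 fell (median 0.27), against 19.4% and 22.2%. The chaperone HSPA8, which helps to load Argonaute, averaged 1071 CPM in the SK-N-BE2 controls and 2336 CPM in the treated libraries, a log2 fold change of 1.09 (SE 0.12; by edgeR, adjusted p = 4.68e-06). In NGP it averaged 298 and 1219 CPM, a log2 fold change of 2.01 (SE 0.11; by edgeR, adjusted p = 9.5e-06). HSP90AA1 rose by 0.94 and 1.73 in the 2 lines, FKBP4 by 0.56 in SK-N-BE2 and HSP90AB1 by 0.66 in NGP. These chaperones also act outside the pathway, and the heat shock genes, HNRNPA2B1, RAN, ERH and PABPC1 have near-identical copies that can cost them reads. Without NGP DMSO replicate 1 the NGP count was 6 higher and 2 lower.

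Silencing effectors, which shorten and decap the targeted messenger, were called in both directions. In SK-N-BE2 6 rose and 6 fell of 23 (median -0.04), against 26.9% and 27.8% of all genes. In NGP 4 rose and 6 fell (median -0.16), against 19.4% and 22.2%. MOV10, a helicase bound to Argonaute, rose by 0.89 in SK-N-BE2, while PAN2, a deadenylase, fell by 0.71 and TNRC6A, the scaffold that binds Argonaute, fell by 0.67. In NGP TNRC6B rose by 0.52, LIMD1 rose by 0.49, and PABPC1, the poly(A) binding protein, fell by 0.50. TNRC6A did not pass in NGP at 0.34, and its difference between the lines was -0.999 (SE 0.17; by edgeR, adjusted p = 0.000641). The NGP count of 10 was 16 without NGP DMSO replicate 1, 2 without NGP DMSO replicate 3 or NGP STM2457 replicate 3, 3 without NGP STM2457 replicate 1 and 5 without NGP STM2457 replicate 2.

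Of 11 tested genes of let-7 control and RNA turnover, 2 rose and 4 fell in SK-N-BE2 (median -0.21). The shares over all genes there were 26.9% and 27.8%. In NGP 2 rose and 0 fell (median -0.16), against 19.4% and 22.2% of all genes. XRN2, a nuclear exonuclease, rose by 0.85 in SK-N-BE2. ZSWIM8, a ubiquitin ligase adaptor of microRNA decay, rose by 0.69 and 0.60 in the 2 lines. TRIM25, a cofactor of let-7 uridylation, fell by 0.48 in SK-N-BE2 and rose by 0.73 in NGP, with a difference of -1.20 (SE 0.13; by edgeR, adjusted p = 1.86e-05). The NGP count was 8 without NGP DMSO replicate 1, with 3 higher and 5 lower, and 4 with the exon length trend removed.

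Known let-7 targets were called in both directions. In SK-N-BE2 8 rose and 8 fell of 24 tested (median -0.02), against 26.9% and 27.8% of all genes. In NGP 9 rose and 4 fell of 25 (median 0.02), against 19.4% and 22.2%. At least 1 CTACCTC was found in the 3′ UTR of 18 of the 27 listed genes; of those named here, IGDCC3 held 4 and RRM2 held 1, while THBS1, IGF2 and MYCN held 0. RRM2, a ribonucleotide reductase subunit, rose by 1.497 in SK-N-BE2 and 1.33 in NGP. THBS1, an extracellular matrix glycoprotein, rose by 1.22 in NGP. IGF2, a growth factor, fell by 1.82 in SK-N-BE2 and had 0.44 in NGP, which did not pass. IGDCC3 rose by 1.123 in NGP and was called lower in SK-N-BE2, at 9.61 CPM in the controls and 4.74 CPM in the treated libraries. MYCN itself had -0.09 and 0.00 on the log2 scale, neither past the test.

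Genes that host microRNAs in their introns or exons were called in both directions as well. In SK-N-BE2 10 were higher and 8 lower of 26 (median 0.10), against 26.9% and 27.8% of all genes. In NGP 6 were higher and 6 lower of 26 (median 0.09), against 19.4% and 22.2%. MCM7, a replication helicase subunit that hosts miR-106b, miR-93 and miR-25, rose by 0.80 in SK-N-BE2, and SMC4, a condensin subunit, rose by 0.97. EGFL7 fell by 0.90 there. In NGP TRPM3 rose by 1.33, TLN2 rose by 1.09 and CTDSP1 fell by 0.60. HUWE1, which hosts let-7f-2 and miR-98, had a log2 ratio of treated to control of 0.29 in SK-N-BE2 (adjusted p = 0.0341 by edgeR) and of 0.12 in NGP (adjusted p = 0.513). The NGP count of 12 was 7 without NGP STM2457 replicate 1 and 6 without NGP STM2457 replicate 3.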

How the data were processed

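The deposited files hold whole-number counts of reads per gene; per the file headers, featureCounts 2.0.5 counted paired reads on exons of GENCODE 33 protein-coding genes by gene name, without strand and without counting pairs as 1, so a fragment can count 2 times. The submitters' processing notes name FastQC 0.11.5, Trimmomatic 0.36, HISAT2 2.1.0 and Subread 1.5.3 on GRCh38; that Subread version differs from the one in the headers. Per the headers, each line was sequenced in a run of its own.

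Samples were grouped by line and treatment from the labels. From the counts, edgeR 4.0.16 (R 4.3.3) was run with filterByExpr (minimum count 10), TMM, the quasi-likelihood test and Benjamini-Hochberg adjustment over all genes tested, at 0.05. Each line was fitted on its 6 libraries; the differences between lines came from 4 group means over 12 libraries. SE is the log2 fold change divided by the root of F. The chosen genes and lists were picked with earlier results of these data known. Named from each list were up to 3 called genes per line with the largest change and at least 10 CPM; AGO4, TNRC6A in NGP, LIN28A, MYCN, HUWE1 and the IGF2, IGDCC3 and TRIM25 values outside that rule were added after their values were seen. Alternatives were other scalings (DESeq2 1.42.0 size factors, upper quartile), filters, DESeq2, robust dispersion, a joint fit, a replicate block and each library left out, and, added after seeing the data, halved counts, a fold minimum and removal of the trend of each library with exon length. Some genes that met the naming rule are not reported here. Of the 10 genes, any with over 10% of exon length shared with another gene is treated as uncertain. On simulated counts with a log2 change of 1 in 200 genes, the SK-N-BE2 fit recovered 92.5% (14344 genes run). The NGP fit recovered 96% (14282) and the fit of the difference between the responses 69% (14494). The simulated counts had the same dispersion for all genes and libraries, and no library stood apart as NGP DMSO replicate 1 did. These percentages therefore do not rank the fits by sensitivity on the real libraries.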

Additional observations from a re-analysis of the deposited data

Results flagged for a closer look

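The DROSHA response to STM2457 differed between the lines by 0.62 (log2; edgeR adjusted p = 0.00198), with 3 of 3 treated libraries above all controls in both lines but only the SK-N-BE2 change past the test. For XPO5 the responses differed by 0.37 (edgeR adjusted p = 0.0326; 0.00663 to 0.104 over the alternatives), with 3 of 3 treated libraries above all controls in SK-N-BE2 and overlapping groups in NGP. Dose and sequencing run differed with the line, and cannot be told apart from it.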

How the results depend on the processing

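Over the 40 fold changes and differences of the 10 genes, 674 alternative values kept their direction and side of the threshold, 39 reversed, 15 came to pass the test and 12 no longer passed. The cause was not tested. No pairing of the libraries by replicate number was seen. Correlations of deviations from the group mean ran from -0.14 to 0.13, and 1 of 6 samples in each line correlated best with its own number. With 3 libraries per group, and NGP DMSO replicate 1 apart from the others, these values cannot show that the libraries were unpaired. With the replicate number as a block, 1 gene was called for the difference between the responses (XPO5 lost at adjusted p = 0.0501), and DICER1 there was -0.0343. The joint fit called 2 genes in NGP. A minimum log2 difference of 1, chosen after seeing the data, left 3 genes between the DMSO groups. Leaving out 1 library gave 1 to 3 genes in NGP and 1 to 3 for the difference between the responses.

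Reversals were all of values that did not pass the test in either fit. In SK-N-BE2, LIN28B was 0.0012 with DESeq2 size factors, 0.0011 with DESeq2, 0.032 in the joint fit and 0.0012 with the exon length trend removed (an alternative chosen after seeing the data), AGO1 was -0.0237 with upper-quartile factors and -0.11 with the length trend removed, and DIS3L2 was -0.0134 with the latter. In NGP, XPO5 was -0.0016 with no filter and AGO2 was -0.0208 with the length trend removed. For the difference between the responses, upper-quartile factors gave -0.0121 for DICER1 and -0.0216 for DIS3L2, and removing the length trend gave -0.0716 and -0.0536. With 1 library left out, the ranges of the values that reversed in SK-N-BE2 were -0.22 to 0.0021 for AGO2, -0.0318 to 0.12 for AGO1 and -0.0771 to 0.036 for LIN28B. In NGP they were -0.0568 to 0.0503 for XPO5, -0.20 to 0.35 for DICER1, -0.18 to 0.25 for AGO2, -0.0435 to 0.18 for DIS3L2, -0.10 to 0.30 for TARBP2 and -0.26 to 0.16 for AGO3. For the difference between the responses they were -0.21 to 0.21 for TARBP2, -0.20 to 0.33 for DICER1, -0.35 to 0.0587 for AGO2 and -0.0646 to 0.14 for DIS3L2, and between the DMSO groups -0.36 to 0.0627 for TARBP2. Each of these genes had 1260 or more reads per library. Over all genes, replicate pairs spread beyond counting error, with a chi-square per degree of freedom of 2.83 to 97.0 on halved counts. The spread between libraries and the 3 replicates per group limit the precision.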
